A study of Homo sapiens with 3 samples.

Results

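The genes of mucosal defence described here, most of them for secreted proteins, are PI3, SLPI, LCN2, WFDC2, ELF3, CEACAM6, PIGR and DEFB1. All 8 were followed across all arrays of the series. They were chosen by name, with their signals in these arrays and their treated difference already known, so that difference is given as a description and without a test. Every probe set (a group of short probes that reads one transcript region) that names 1 of these genes and no other was kept. This gave 19 probe sets of 44994 that name 1 gene, for 8 genes of 18132. FaDu, an established cell line from a hypopharyngeal carcinoma, was kept for 48 h with 10 µg/ml of NSC-631570, an extract of Chelidonium majus, at the dose that the submitters call its EC50. Control cells received distilled water. RNA was read on 2 untreated arrays and 1 treated array, so the treated condition has no replicate. The labels do not say whether the untreated arrays came from separate cultures, and the spread between them may be technical.

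Mucosal surfaces are protected by proteins that epithelial cells release or display. Inhibitors with a WAP domain, among them PI3 (elafin), SLPI and WFDC2, are secreted by such cells, and PI3 and SLPI block neutrophil elastase. LCN2 binds bacterial siderophores and so withholds iron, DEFB1 is a constitutive beta-defensin, and PIGR carries polymeric immunoglobulins across the epithelium. CEACAM6 is a surface adhesion molecule that bacteria can bind, and ELF3 is an ETS transcription factor of epithelial cells. Several of these genes are known to respond to NF-kB, C/EBP and interferon signalling.

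The stretches before the start sites of LCN2, WFDC2 and ELF3 are shown because these genes stood apart in different ways, LCN2 by the gap between the untreated arrays and WFDC2 and ELF3 by a treated value above or below both of them. RefSeq promoters (GRCh38.p14) were matched for 5 of the 8 genes, LCN2, WFDC2, ELF3, CEACAM6 and PIGR, and the 250 bases before the start were searched. The sequences run 5′ to 3′ on the plus strand, at chr9:128149203-128149452 for LCN2, chr20:45469503-45469752 for WFDC2 and chr1:202010337-202010586 for ELF3. Capitals mark matches, on either strand, to any of the motifs named below.
LCN2: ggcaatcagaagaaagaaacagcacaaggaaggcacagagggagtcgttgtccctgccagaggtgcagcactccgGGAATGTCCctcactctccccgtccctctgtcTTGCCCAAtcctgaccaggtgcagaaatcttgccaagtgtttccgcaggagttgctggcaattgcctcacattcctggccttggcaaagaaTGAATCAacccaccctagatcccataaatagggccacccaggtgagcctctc
WFDC2: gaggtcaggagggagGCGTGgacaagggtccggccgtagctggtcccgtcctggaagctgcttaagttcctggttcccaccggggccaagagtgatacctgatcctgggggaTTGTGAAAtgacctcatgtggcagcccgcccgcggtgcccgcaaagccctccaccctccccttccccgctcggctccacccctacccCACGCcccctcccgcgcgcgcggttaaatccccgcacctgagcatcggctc
ELF3: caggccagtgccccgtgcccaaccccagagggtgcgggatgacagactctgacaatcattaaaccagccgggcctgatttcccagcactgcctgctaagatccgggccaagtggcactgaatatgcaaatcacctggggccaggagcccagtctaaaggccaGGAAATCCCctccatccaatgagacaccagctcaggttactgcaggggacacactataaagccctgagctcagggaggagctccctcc
The motifs searched were the core letters GGAANNNCC for NF-kB, CCGGAA for ETS factors, TTNNGNAA for C/EBP, GAANNGAAA for interferon response elements, GCGTG for the AhR and TGANTCA for AP-1. The NF-kB and ETS letters share GGAA and can overlap. The NF-kB letters matched once in LCN2, 175 bases before the start, and once in ELF3, 88 bases before it. The AP-1 letters, which read alike on both strands, matched in LCN2 52 bases before the start. The C/EBP letters matched once in LCN2, 143 bases before the start, once in WFDC2 and at 2 places in CEACAM6. The AhR letters matched at 2 places in WFDC2 and once in PIGR, and the interferon letters once in PIGR. The ETS letters matched in none of the 5 windows. Of 35116 promoter windows of this length, 17.1% held the NF-kB letters, 14.5% the ETS letters, 33.2% the C/EBP letters, 6.56% the interferon letters, 32.2% the AhR letters and 6.57% the AP-1 letters. These matches describe the sequence alone.

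The deposited values are log2 signals, and all levels below are on that scale. The 3 arrays had medians between 6.55 and 6.62. Genes were represented by their brightest probe set, and 11932 genes whose mean signal reached 5.85 (the 40th percentile over probe sets) were tested with limma. Of these, 8 genes (0.067%) passed a Benjamini-Hochberg adjusted p of 0.05. No detection call could be made. The ACTB control at the 5′ end read lower in the treated array than in the untreated mean (difference −1.37). Its 3′ control was within 0.20, while between the untreated arrays the 5′ signal differed by 0.003. For GAPDH the treated differences were −0.48 at the 5′ end, −0.20 in the middle and −0.01 at the 3′ end. The part of this in any treated difference below was not tested. Squamous and epithelial markers were well represented: all 8 of the 11 listed ones that had a probe set of their own were above the filter. Their median difference from the untreated mean was 0.18, with 5 of the 8 higher in the treated array, from KRT14 (0.95) to EPCAM (−0.42).

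The 3 genes with the widest values were PI3, SLPI and LCN2, and in each the untreated arrays differed more than 3-fold from each other. PI3, the elastase inhibitor elafin, had a signal of 8.40 in untreated 1, 6.04 in untreated 2 and 6.98 in the treated array. The treated value lay between the untreated ones, 1.43 below the first (−1.43) and 0.94 above the second. The untreated arrays were 5.14-fold apart. The mean of the untreated arrays was 7.22 ± 1.67 (SD, n = 2), from which the treated array differed by −0.25. This gene has a single probe set. In bulk RNA such as this, fewer cells making a transcript and less of it per cell cannot be told apart.

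SLPI, the secretory leukocyte protease inhibitor, stood at 10.55 in untreated 1, 8.63 in untreated 2 and 11.08 in the treated array. The treated array was the highest of the 3 but close to untreated 1. Its distance was 0.53 from untreated 1 and 2.45 from untreated 2, and the untreated arrays were 3.80-fold apart. From the untreated mean of 9.59 ± 1.36 (SD, n = 2) the difference was 1.49, or 2.81-fold, which is smaller than the gap of 1.93 between the untreated arrays. Of the 8 genes this was the largest treated difference from the untreated mean. WFDC2, a further WAP protein, had 8.49 and 8.24 in the controls and 8.71 after treatment on its brightest probe set. The treated value lay above both, 0.23 from the nearer one. On its probe set with the largest difference WFDC2 had 6.75 and 5.94 untreated against 7.50 treated, a difference of 1.16 from their mean. The probe set between them in brightness, of a kind marked as possibly cross-hybridising, had 8.10, 7.76 and 8.39 in the same order. The dimmest, below the filter, had 5.68, 5.83 and 5.72 and lay between the untreated arrays. In all, 3 of the 4 probe sets of WFDC2 were highest in the treated array, by 0.23 to 0.75 over untreated 1.

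LCN2, the siderophore-binding lipocalin, had a signal of 10.34 in untreated 1, 8.56 in untreated 2 and 10.19 in the treated array. The treated value was close to untreated 1 (−0.15) and 1.63 above untreated 2, so it lay between them. The untreated arrays were 3.44-fold apart, and the difference from their mean of 9.45 ± 1.26 (SD, n = 2) was 0.74.

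**Figure D1:**
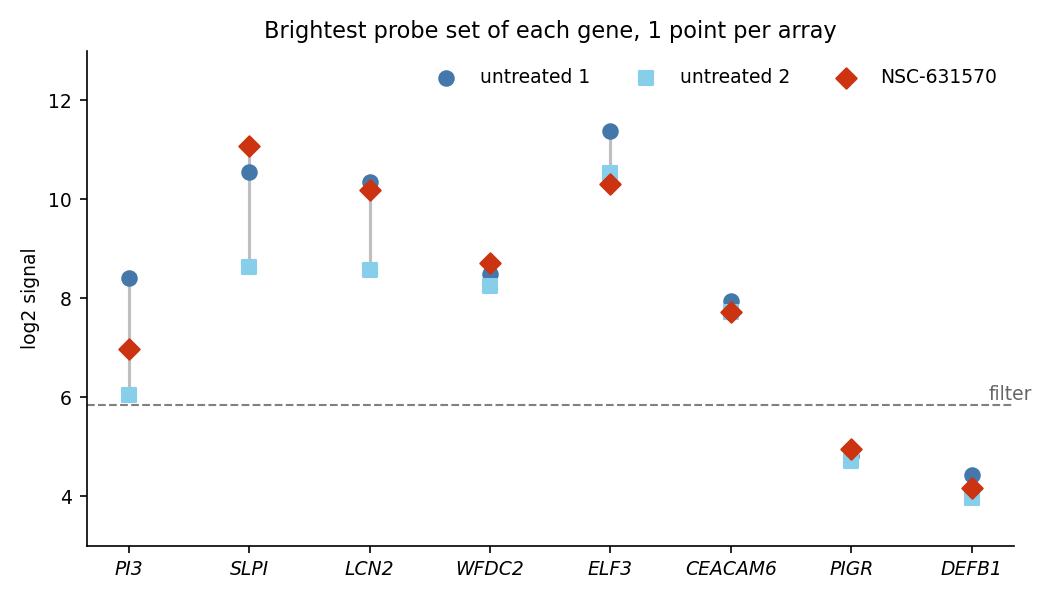
The log2 signal of the brightest probe set of each of the 8 genes is plotted for untreated 1, untreated 2 and the treated array, 1 point per array, with the filter of 5.85 as a dashed line and grey lines joining the lowest and highest array. In PI3, SLPI and LCN2 untreated 2 lies far below untreated 1, in ELF3 the treated array is the lowest, and PIGR and DEFB1 lie below the filter.

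ELF3, the epithelial ETS factor, was lowest in the treated array. Its brightest probe set had 11.38 in untreated 1, 10.52 in untreated 2 and 10.31 in the treated array. The treated value was 1.08 below the first (−1.08) and 0.22 below the second (−0.22), a difference of −0.65 from the untreated mean. The other probe sets gave 8.84, 8.07 and 7.58, and 11.40, 10.49 and 10.31, in the same order. The treated array was below both untreated arrays on all 3 probe sets, and untreated 1 exceeded untreated 2 by 0.77 to 0.91. The brightest probe set and the one next to it in signal gave the same treated value of 10.31, and whether they share probes was not tested.

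CEACAM6, the adhesion molecule, differed little between arrays. Its brightest probe set had 7.95 and 7.71 untreated and 7.73 treated, so the treated value lay between them. A second probe set, of a kind marked as possibly cross-hybridising, had 7.34, 7.22 and 7.21, and the third, below the filter, had 4.64, 4.11 and 4.77. The difference from the untreated mean ran from −0.10 to 0.39 over the 3 probe sets. The largest of these belonged to the dim probe set.

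Of the 8 genes 6 passed the filter, and PIGR and DEFB1 gave no signal above it on any probe set. The brightest probe set of PIGR, the immunoglobulin receptor, had 4.81 and 4.71 without the extract and 4.96 with it. Its 4 probe sets differed from the untreated mean by −0.21 to 0.20. DEFB1, the beta-defensin, had 4.42 and 3.96 in the controls and 4.16 after treatment on the brighter of its 2 probe sets, and the treated array lay between the untreated ones on both. At these signals no presence or absence can be read.

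**Figure D2:**
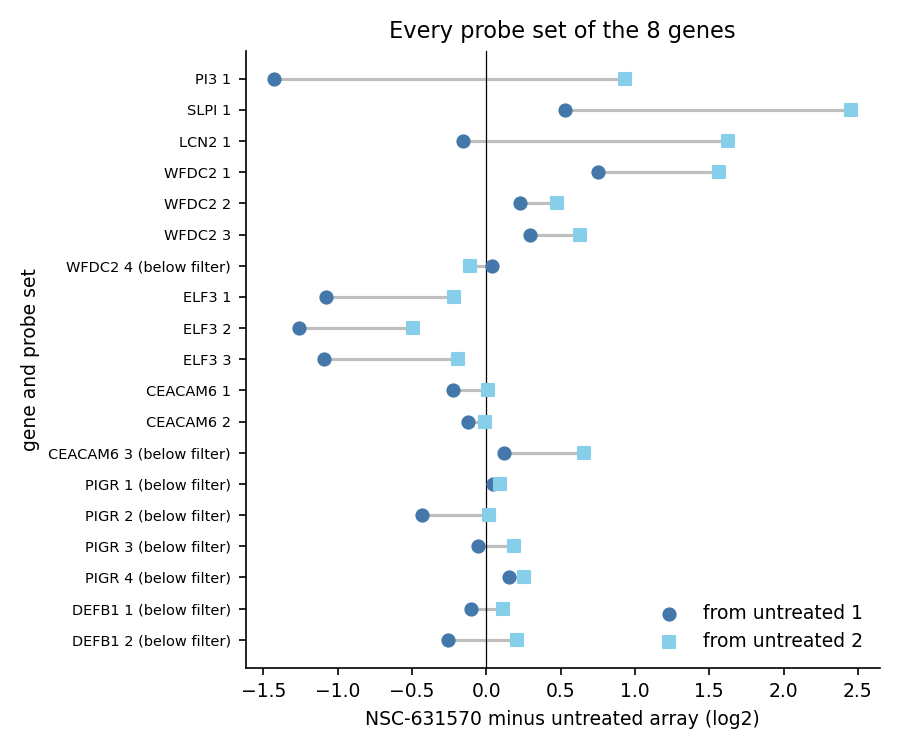
For each of the 19 probe sets the log2 difference of the treated array is shown from untreated 1 (circles) and from untreated 2 (squares), joined by a line whose length is the gap between the untreated arrays. The lines of PI3 and LCN2 cross 0, that of SLPI lies to the right of it, and those of ELF3 lie to the left on all 3 probe sets.

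Over the 8 genes the treated array was above both untreated arrays in 3 (SLPI, WFDC2 and PIGR), below both in 1 (ELF3) and between them in 4. Among all 18132 genes it was above both in 46.9%, below both in 24.2% and between them in 28.8%. None of the 8 lay 2-fold or more outside both untreated arrays, where 0.794% of all genes did. The median difference from the untreated mean was 0.09 over the 8 genes and 0.07 over all genes. As the genes were chosen with this contrast in view, nothing is read from these counts. Giving the arrays equal medians across the tested genes moved the median difference of the tested genes from 0.12 to −0.08, and CEACAM6 then lay below both and PIGR between the untreated arrays. The split of SLPI and WFDC2 above, ELF3 below and PI3 and LCN2 between held under each scaling tried.

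In these 8 genes the gap between the untreated arrays ran one way. Untreated 1 was the higher array in all 8 genes, and in 18 of their 19 probe sets, with the dimmest WFDC2 probe set as the exception. Among all genes untreated 1 was the higher in 57.9%, and in 67.3% of the 6200 genes below the filter, where PIGR and DEFB1 lie. It was at least 2-fold above untreated 2 in 3 of the 8 genes, PI3, SLPI and LCN2, and in 0.32% of all genes. The median signed gap was 0.66 over the 8 genes and 0.05 over all genes. By the size of the gap PI3 was in place 3 of the 11932 tested genes, SLPI in place 10 and LCN2 in place 18. ELF3, with a gap of 0.86, had 250 tested genes with a gap as large or larger, itself included. The gaps of WFDC2 (0.25) and CEACAM6 (0.23) were nearer the median size of 0.18 over the tested genes. As the genes were chosen with these signals known, the counts and places of the gap are a description, and nothing is read from them.

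**Figure D3:**
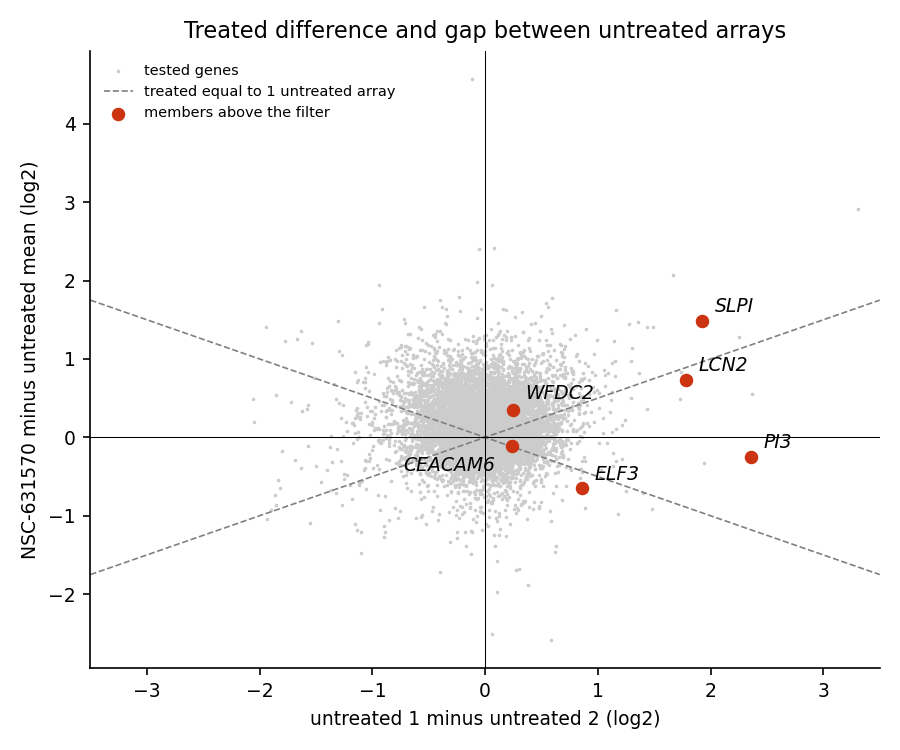
Each tested gene is placed by the gap between the untreated arrays (horizontal, log2) and the difference of the treated array from the untreated mean (vertical, log2), and the 6 genes above the filter are marked in red. Between the dashed lines to the right and left the treated array lies between the untreated ones, as for PI3 and LCN2, while SLPI lies above the upper line and ELF3 below the lower one.

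Some genes outside the 8 had gaps of like size, and these were picked out after their values were seen. The widest gap of all was that of the interferon-induced IFI27 (3.31), followed by the matrix protease gene MMP7 (2.37). MMP7 had 7.61 and 5.24 untreated against 6.98 treated, which lay between them. S100A9, a subunit of the antimicrobial protein calprotectin, had 8.62 in untreated 1, 6.37 in untreated 2 and 8.77 in the treated array. Its treated value was above both, by 0.16 over the nearer. S100A7 (psoriasin) had 6.93, 5.20 and 6.55 in the same order. Wide gaps more often ran the other way, as in IL24 (−1.94) and DUSP1 (−1.94). Among all genes, 170 had a gap of 2-fold or more, and untreated 1 was the higher array in 58 of them.

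The tested genes with the most similar profile were found by the smallest Euclidean distance between log2 values centred over the 3 arrays. With only 3 arrays many genes match a flat profile, and a match says little. The nearest gene to SLPI was S100A9 (distance 0.29) and the nearest to LCN2 was KRT4 (0.09), with 8.68 and 6.93 untreated and 8.64 treated. The nearest to PI3 was EGR3 (0.31), with 7.86, 5.92 and 6.56 in the same order. For PI3 and SLPI no other gene lay within 0.25, and for LCN2 there were 2. The nearest to ELF3 was KLK9 (0.10), among 16 genes within 0.25. WFDC2 and CEACAM6 had 3236 and 4123 genes that near, led by ENTPD2 and HGH1.

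PI3, SLPI and WFDC2 lie in 1 stretch of chromosome 20 that holds many genes for WAP proteins. In RefSeq order, from 3 protein-coding genes before PI3 to 3 after WFDC2, the stretch holds 18 genes, of which 15 are not among the 8 described here. Of these, 13 had a probe set of their own and 6 were above the filter. Their gaps between the untreated arrays were at most 0.52 in size, with a median of 0.10, against 2.36 for PI3 and 1.93 for SLPI. Their differences from the untreated mean ran from −0.22 to 0.57, the highest being that of SDC4, a cell surface proteoglycan gene, with 11.97 and 12.49 without the extract and 12.80 with it. The WAP gene WFDC12, next to PI3, had 6.24, 6.14 and 5.98 in the same order, and WFDC5 was below the filter. The stretch was chosen after the values were seen.

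**Figure D4:**
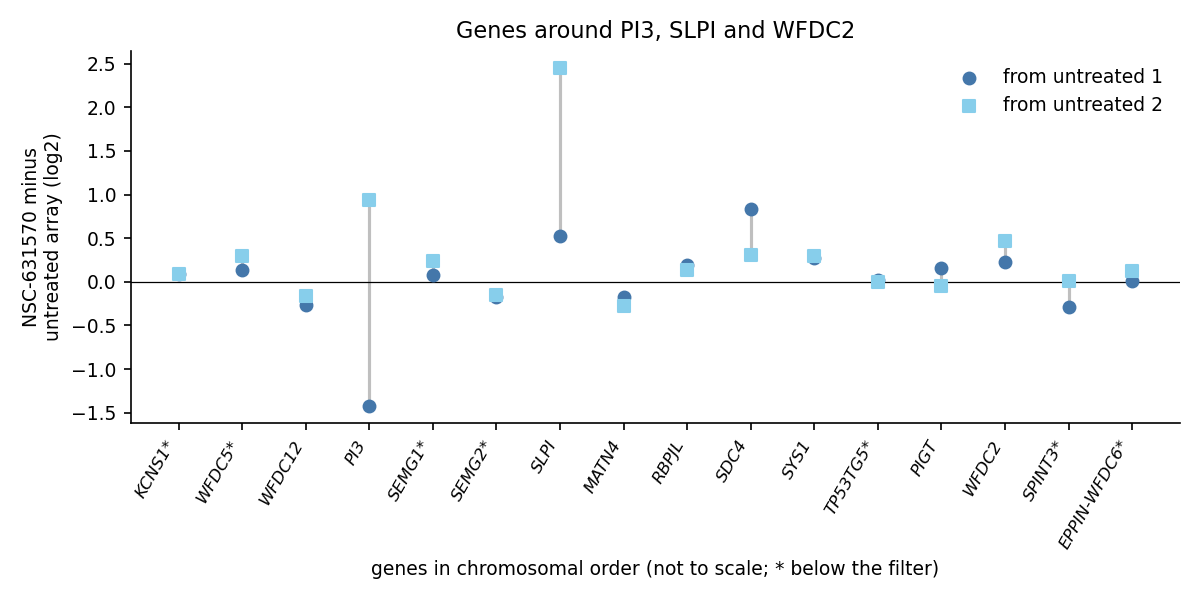
The log2 difference of the treated array from untreated 1 (circles) and untreated 2 (squares) is shown for the genes around PI3, SLPI and WFDC2 in their chromosomal order, with an asterisk for genes below the filter. The long lines of PI3 and SLPI stand among neighbours whose lines are short.

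Other genes of mucosal defence were taken from 7 lists with 139 symbols, none of them one of the 8 genes, and 80 were tested. None passed limma's adjusted threshold, for which the share over all tested genes was 0.067%. At an unadjusted limma p under 0.05 there were 14 of the 80 list genes, beside 1724 of all 11932 tested genes (14.4%). The median difference was 0.13 over the list genes and 0.12 over all tested genes. Untreated 1 was the higher array in 47.5% of the tested list genes and in 53.0% of all tested genes.

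Of 11 tested genes for antimicrobial proteins none passed, 10 exceeded the untreated mean and in 7 the treated array was the highest, with a median difference of 0.48. Over all tested genes 66.0% exceeded the untreated mean and in 51.7% the treated array was above both untreated ones. A further 21 of the 32 listed antimicrobial genes with a probe set of their own were below the filter. Over all 32 the median signal was 5.51 in untreated 1, 4.90 in untreated 2 and 5.37 in the treated array. The complement factor gene CFB had 8.13 and 7.98 in the controls and 9.24 after treatment (log2 difference 1.19 ± 0.22, SE). Of the settings tried, CFB passed only with equal array medians across probe sets, where the number of all tested genes that passed also rose. RNASE7, a ribonuclease that kills bacteria, had 6.75, 6.43 and 7.60 in the same order (1.01 ± 0.24, SE, limma adjusted p = 0.134). ADM, which encodes the peptide adrenomedullin, stood at −0.70. In this list untreated 1 was the higher array in 8 of 11 genes.

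Of 12 tested protease inhibitor genes none passed and the median difference was 0.14. SPINT1, an inhibitor of membrane serine proteases, had 10.06 and 10.02 untreated against 10.83 treated (difference 0.79). CSTA, a cysteine protease inhibitor of squamous cells, stood at 0.61 and SERPINA3 at −0.37. SERPINA1, the gene of alpha-1-antitrypsin, which like PI3 and SLPI blocks neutrophil elastase, had 7.23 in untreated 1, 8.27 in untreated 2 and 8.58 in the treated array. Its untreated gap of −1.04 ran opposite to theirs. Untreated 1 was the higher array in 5 of the 12.

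Among the relatives and partners of LCN2, CEACAM6 and PIGR none passed. Of 4 tested lipocalins and LCN2 partners APOM stood at 0.66 and LCN12 at −0.21, while LCN15 (0.22) and the LCN2 receptor gene SLC22A17 (−0.12) lay between these. Of 8 tested CEACAM genes the median difference was −0.02, with CEACAM3 at 0.32, CEACAM16 at 0.19, CEACAM4 at −0.09 and CEACAM18 at −0.14. Untreated 1 was the higher array in 7 of them. Tested genes with an untreated mean below 7, where several of these lie, had untreated 1 as the higher array in 65.3%. Of 10 tested genes for immunoglobulin transport the median was −0.02. The neonatal Fc receptor gene FCGRT stood at 0.56 and RAB11FIP5 at 0.64, with VPS35 at −0.32 and FCMR at −0.14.

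ELF3 was set beside 11 other tested ETS factors, of which none passed. EHF, its closest relative among epithelial ETS factors, had 9.92 and 9.98 untreated and 10.60 treated. Its difference of 0.65 was as large as that of ELF3 and of opposite sign. SPDEF, a further epithelial member, stood at −0.28, ETS2 at −0.21 and ERF at 0.49. Untreated 1 was the higher array in 2 of the 11, unlike in ELF3.

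Known inducers of mucosal defence genes, cytokines, receptors and transcription factors, gave no call among 24 tested genes and a median difference of 0.16. CEBPA stood at 0.90, IL10RB at 0.41, TNF at −0.26 and NFKB1 at −0.21. Untreated 1 was the higher array in 7 of the 24. IL6 had 7.74 in untreated 1, 8.86 in untreated 2 and 7.74 in the treated array, and CEBPD, a factor that binds C/EBP motifs, had 10.69, 11.79 and 10.69. In both the treated value was next to untreated 1, as in LCN2, while untreated 2 was the highest array and not the lowest.

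**Figure D5:**
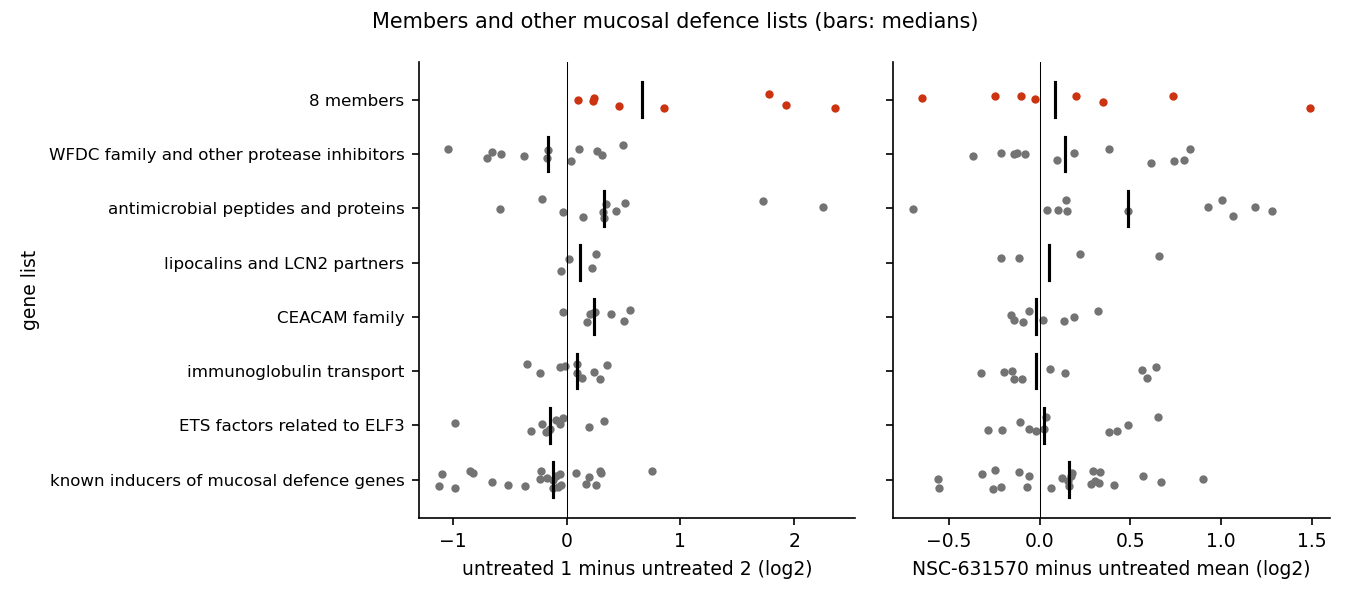
Points are genes, the 8 genes in red above 7 lists of other mucosal defence genes (tested members only), and bars are medians. The left panel gives the gap between the untreated arrays and the right panel the difference of the treated array from the untreated mean, both log2. All red points lie to the right of 0 in the left panel and on both sides of it in the right one.

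SLPI, LCN2 and CEACAM6 are also made by neutrophils or glandular cells, so marker genes of such cells were read in these cell line arrays. Of 11 leukocyte markers 4 were above the filter (CSF3R, CD14, CD3E and CD79A), and PTPRC, MPO, ELANE, AZU1, CTSG, FCGR3B and ITGAM were below it in their mean. The summed linear signal of the 11 was 633 in untreated 1, 526 in untreated 2 and 654 in the treated array. CD14 had 7.03 and 6.17 without the extract and 7.42 with it. CD3E had 6.04, 5.65 and 6.05 in the same order, while CSF3R (6.82, 6.69 and 6.79) and CD79A (7.07, 6.93 and 6.94) were highest in untreated 1. The treated array was thus above both untreated ones in 2 of the 4, beside 51.7% of all tested genes. Of 10 measured markers of glandular and airway secretory cells 1 (SCGB3A1) was above the filter, with a summed signal of 328 and 303 in the controls and 320 after treatment. Of 7 fibroblast markers 2 were above it, with sums of 278 and 251 untreated against 267 treated. FaDu is a cell line, so these signals are not read as other cell types in the culture. Any link between these marker genes and the 8 genes was not tested.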

How the data were processed

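RNA of FaDu cells was measured on 2 untreated arrays and 1 array of cells given NSC-631570. The authors deposited a log2 signal for each probe set and array. Affymetrix Expression Console is named in the submitters' processing notes. Its algorithm, version and normalization were not given in the sources used here, and the log2 scale was read from the values. They were used as deposited. Precision is limited by how few arrays there are.

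Of 49395 probe sets, 44994 named 1 gene in the platform annotation. The brightest probe set stood for each gene, above a filter at the 40th percentile (5.85). The contrast of treated with untreated was fitted with limma 3.58.1 in R 4.3.3 over 11932 genes, with Benjamini-Hochberg adjustment. Only the untreated arrays inform the spread (1 degree of freedom, moderated by 6.95 prior ones), and the treated array is taken to vary as they do. The fit was also run on simulated data that gave every array the same spread, so that run could not check this assumption. The members and lists were chosen with earlier results of these data known. Named list genes are the 2 furthest above and the 2 furthest below the nearer untreated array, and others are marked as chosen after their values were seen. The list genes SERPINA1, S100A7, S100A9, IL6 and CEBPD were named for their untreated gap after it was seen. Promoters are RefSeq's, and the motif letters searched were settled after these sequences were seen. Alternatives were other scalings, filters, prior variances, averaging the probe sets of a gene and leaving out each untreated array.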

Additional observations from a re-analysis of the deposited data

How the results depend on the processing

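The number of genes past limma's adjusted threshold, 8 as reported, was 136 with equal array medians across probe sets, 50 with equal medians across tested genes, 4 after quantile normalization, 4 without a filter, 21 with the filter at the 60th percentile, 3 with averaged probe sets and 31 with a trend in the prior variance. The cause was not tested. Among the mucosal defence lists 1 gene, CFB, passed with equal array medians across probe sets, and 0 under the other settings (unadjusted p under 0.05 in 8 to 17 genes). The number of the 8 genes outside both untreated arrays, 4 as reported, was 3 with averaged probe sets and 0 at a distance of 1.5-fold or 2-fold. Their median difference, 0.09 as reported, ran from −0.19 without untreated replicate 2 to 0.36 without untreated replicate 1. Against a single untreated array the sign differed for PI3, LCN2, CEACAM6 and DEFB1. Over the scalings, the untreated gap was 2.31 to 2.38 for PI3, 1.88 to 1.96 for SLPI and 1.73 to 1.82 for LCN2. No paired analysis was possible because the labels number only the untreated arrays and there is 1 treated array. With an untreated array left out, 1 array remained on each side and no test could be run.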
